A study of Homo sapiens with 12 samples.

Results

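The S100 genes encode small calcium-binding proteins, and 10 of them, S100A2, S100A4, S100A6, S100A8, S100A9, S100A10, S100A11, S100A14, S100A16 and S100P, were followed here through a bulk RNA-seq experiment on EGFR inhibition. Members were taken by matching these symbols to the gene column of the deposited count table, and all 10 were found among its 60591 genes. All 10 also passed the filter on low counts that left 19108 genes to test. RNA was sequenced from PC9 and H1650, established non-small cell lung cancer lines that carry activating EGFR mutations and are both labelled Wild-type for genotype. Each line was sampled at T0 (DMSO at 0.1%, 0 h), after 36 h with 10 µM erlotinib, a reversible EGFR inhibitor, and after 36 h with 0.1 µM osimertinib, an irreversible one, with 2 replicates in each of the 6 groups and 12 libraries in all. No vehicle libraries at 36 h were analysed here, so drug and time in culture cannot be told apart. In bulk RNA, fewer expressing cells and less RNA per cell cannot be told apart either.

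S100 proteins are dimers built from EF-hand calcium-binding loops. Calcium opens a hydrophobic cleft that grips a partner, such as an annexin, a myosin heavy chain or ezrin, and several members are also released from cells and bind the receptors RAGE (AGER) and TLR4. In epithelia S100A10, S100A11 and S100A6 are broadly expressed, S100A2 marks basal and squamous layers, and S100A8 with S100A9 forms calprotectin, a metal-binding complex abundant in neutrophils and inducible in stressed epithelium. All but one of the genes lie in a cluster on chromosome 1 within the epidermal differentiation complex, while S100P stands alone on chromosome 4.

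In GENCODE 29 on GRCh38, S100A10 (151982915-151994390, minus strand) and S100A11 (152032506-152047907, minus strand) are at one end of the chromosome 1 cluster. S100A9 (153357854-153361027, plus strand) and S100A8 (153390032-153391188, minus strand) lie on opposite strands with S100A12 between them. Further along come S100A6 (153534599-153536244, minus strand), S100A4 (153543613-153550136, minus strand) and S100A2 (153561108-153567890, minus strand). S100A16 (153606886-153613145, minus strand) and S100A14 (153614255-153616986, minus strand) are adjacent, and S100P occupies 6693069-6697170 on the plus strand of chromosome 4. Exons of 9 members overlapped no other annotated gene, and S100A6 shared 23 exon bases with an antisense transcript on the opposite strand. With the strand setting not known, reads in those 23 bases could belong to either.

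The promoters of the members with the widest range between groups are shown first, because 4 of them share a motif at a like distance from the start. The motifs were chosen after the sequences had been read. All windows are from RefSeq on GRCh38.p14, read 5′ to 3′ on the gene's strand, and all 10 members were matched in that table. The motif TATAAA was searched on both strands of the 250 bases before each listed start. It was present for 4 of the 10 members, S100A4, S100A8, S100A9 and S100P, and in 10.7% of 35097 windows of all genes. Here and for the motifs below, a member counted if any of its listed windows held the motif, whereas the percentages count single windows. A member with several listed starts thus had more than one window in which to match. Counting only TATAAA that began 35 to 20 bases before the start on the gene's strand, the same 4 members held it, against 2.2% of all windows. The 30 bases from 34 to 5 before the start are given for these 4, with TATAAA in capitals. For S100A8 the window belongs to start number 2 of 3 listed starts, and for S100A8, S100A4 and S100P an alternative transcript in GENCODE 29 runs across it.
S100A8, chr1:153391078-153391107, minus strand: accgcTATAAAaaggagctgcctctcagcc
S100A9, chr1:153357820-153357849, plus strand: ctgccTATAAAtgccgagcctgcacagctc
S100A4, chr1:153545811-153545840, minus strand: gggTATAAAtaggtcagacctctgggccgt
S100P, chr4:6693844-6693873, plus strand: ctgcctTATAAAgcaccaagaggctgccag
The motif began 29 bases before the start in S100A8 and S100A9, 31 before it in S100A4 and 28 before it in S100P.

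S100A2 held none of these, but it was the member with the AP-1 motif TGANTCA, a palindrome that reads alike on both strands and was present in 6.57% of all windows. Its match, in capitals, began 52 bases before start number 1 of 2 listed starts, and it is shown because S100A2 fell in every drug comparison described below. The bases from 250 to 22 before that start carried no annotated exon.
S100A2, chr1:153565866-153566094, minus strand: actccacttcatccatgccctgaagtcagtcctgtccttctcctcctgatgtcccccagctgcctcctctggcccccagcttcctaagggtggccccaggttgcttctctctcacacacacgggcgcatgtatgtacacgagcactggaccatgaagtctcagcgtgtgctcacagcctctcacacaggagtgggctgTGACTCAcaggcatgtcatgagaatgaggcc
The S100A9 window, which carried no annotated exon either, is given whole for comparison, with TATAAA in capitals.
S100A9, chr1:153357604-153357853, plus strand: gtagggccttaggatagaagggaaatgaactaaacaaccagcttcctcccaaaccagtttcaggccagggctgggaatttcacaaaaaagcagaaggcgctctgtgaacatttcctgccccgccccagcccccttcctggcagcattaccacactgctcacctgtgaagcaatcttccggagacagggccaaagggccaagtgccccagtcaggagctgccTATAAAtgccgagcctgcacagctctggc
The GC-box letters GGGCGG, searched on both strands, were in 42.6% of all windows and in those of 5 members, S100A6, S100A9, S100A10, S100A11 and S100A16. S100A14 held none of the 3 motifs. These matches describe letters in a window and were not tested for binding.

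Levels were compared as CPM, reads per 1000000 reads of a library after TMM scaling of its total, and between genes as CPM per kilobase (kb) of the gene length deposited with the counts. Libraries held 17961765 to 26346187 reads, 3 reads corresponded to 0.116 to 0.168 CPM, and the 10 members together took 0.174% to 0.276% of each library. On the length-scaled level S100A11, S100A10 and S100A6 held places 1, 2 and 3 among the members in each of the 6 groups. At T0 they reached 876, 526 and 324 CPM per kb in PC9, and 1093, 907 and 407 CPM per kb in H1650, at or above the 99.6th percentile of tested genes in both lines. Place 4 differed by line and treatment. In PC9 it was S100A16 at T0 (235 CPM per kb) and S100P under erlotinib (288) and osimertinib (171). In H1650 it was S100A9 in all 3 groups (251, 229 and 354). The deposited lengths of S100P, 471 bases, and S100A10, 1012 bases, are shorter than their 1280 and 1543 annotated exon bases in GENCODE 29. Their places between genes, including the order of S100A10 and S100A6, thus depend on that annotation.

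**Figure D1:**
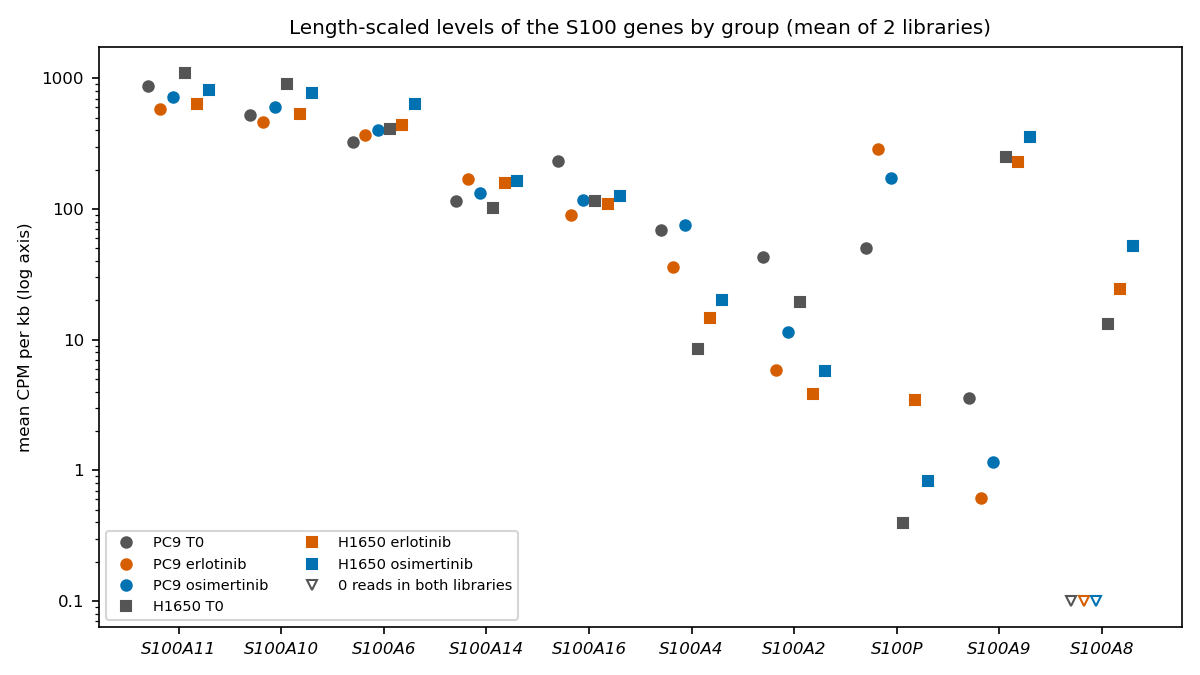
Mean length-scaled level (CPM per kb, log axis) of each S100 gene in the 6 groups, 2 libraries per group; circles are PC9, squares H1650, grey T0, orange erlotinib and blue osimertinib, and open triangles at the bottom mark S100A8, with 0 reads in PC9. S100A11, S100A10 and S100A6 sit together at the top in both lines, whereas S100P, S100A9 and S100A8 are separated by line.

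By the range of group means the members were split into a narrow-range and a wide-range set, with no threshold set in advance. A narrow range does not mean no change, since S100A16 fell in PC9 and S100A10 and S100A11 passed the test in every drug comparison. The highest group mean was 1.65 times the lowest for S100A14, 1.87 times for S100A11, 1.95 times for S100A6, 1.96 times for S100A10 and 2.6 times for S100A16. It was 8.89 times for S100A4, 11.3 times for S100A2, 572 times for S100A9 and 730.2 times for S100P, and S100A8 had no lower value to divide by. The 4 members with TATAAA and S100A2 were thus the 5 with the widest ranges, a description of these genes that was not tested. It rests on the exact letters TATAAA. The windows of S100A6 and S100A14, whose ranges were narrow, held TATAAG close to the start, which differs in the last letter and was not searched.

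Epithelial identity of the cultures was checked first. The 6 epithelial markers, EPCAM, CDH1 and 4 simple keratins, were all detected, and their summed level ran from 6162 to 13298 CPM over the 12 libraries. Of the 5 lung lineage markers, which include NKX2-1 and surfactant genes, the summed level did not exceed 1.94 CPM and NKX2-1 had at most 2 reads in a library. Myeloid markers were checked because S100A8 and S100A9 are best known from that lineage. Their summed level in the 3 PC9 groups was 4.89 to 6.17, 9.41 to 11.2 and 22.4 to 24.1 CPM at T0, under erlotinib and under osimertinib, and in H1650 it was 54.7 to 59.3, 22.0 to 22.3 and 26.8 to 29.4 CPM. CSF1R alone made up 54.6, 19.6 and 24.4 CPM of the H1650 sums, and ITGAM 3.83, 6.34 and 17.4 CPM of the PC9 sums. CD14 was at 2.09, 2.01 and 3.58 CPM in the H1650 groups and had at most 9 reads in a PC9 library. The other 6 of the 9 listed genes did not pass the filter. CSF3R reached 16 reads in a library, and PTPRC, SPI1, LYZ, MPO and FCGR3A had at most 5.

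**Figure D2:**
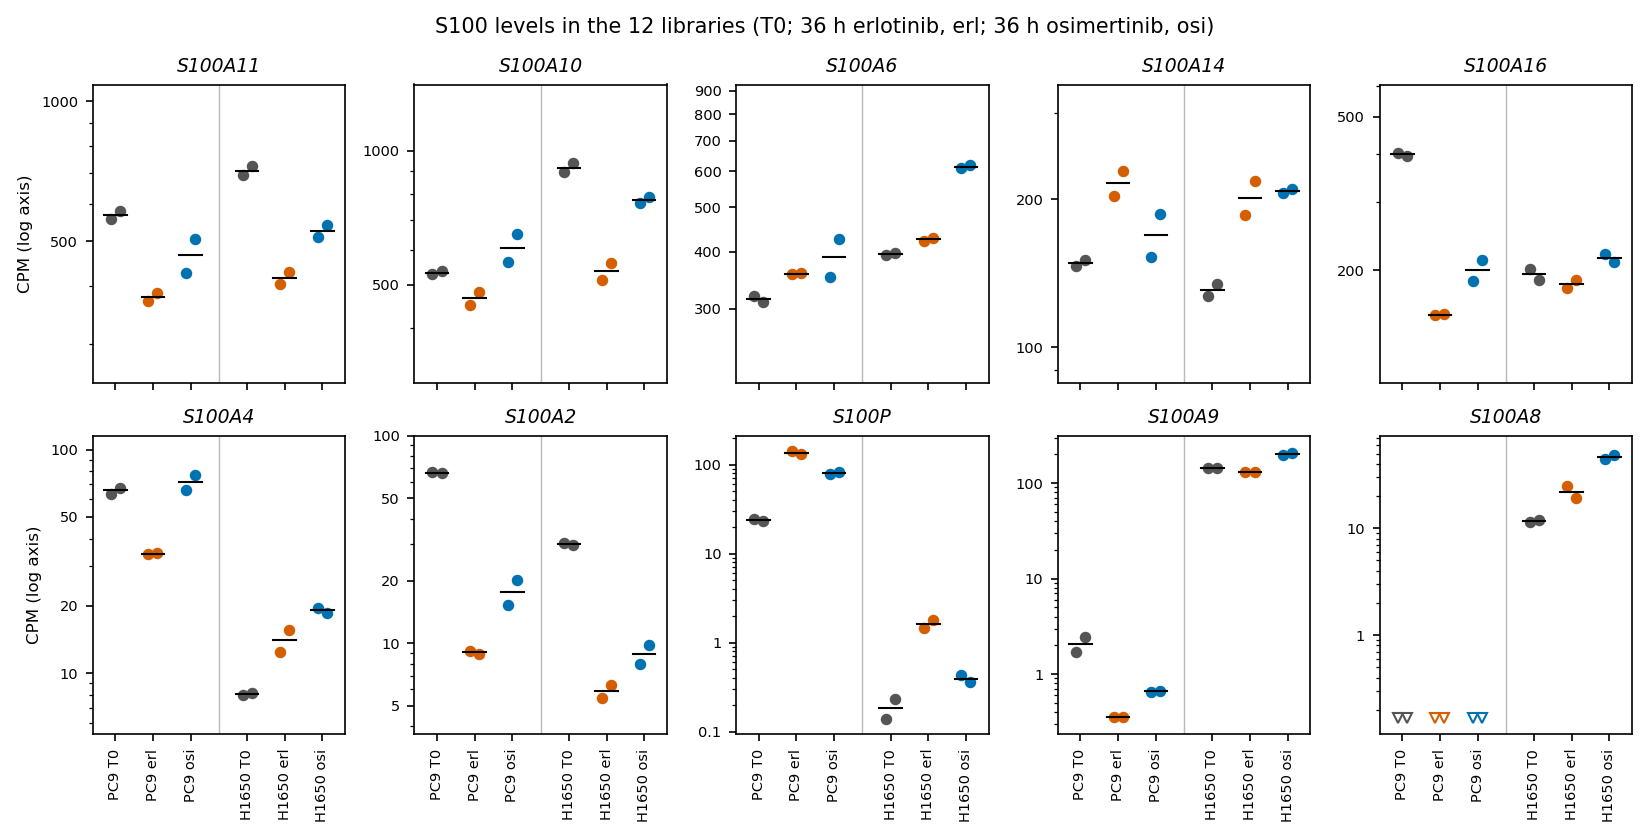
CPM of each S100 gene in each of the 12 libraries (log axis, scaled per panel); points are libraries, bars group means, grey T0, orange erlotinib (erl), blue osimertinib (osi), and open triangles libraries with 0 reads, drawn at the highest 3-read floor. S100A2 is lower in the treated libraries of both lines, S100P is high in PC9 alone, and S100A8 has reads in H1650 alone.

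Which members changed under each drug was asked in each line against its own T0 libraries, which the erlotinib and osimertinib comparisons of a line share. S100A8 could not be assessed in PC9, where it had 0 reads. In PC9, 9 of the 9 remaining members passed the test under erlotinib (3 higher and 6 lower, against 61.8% of all genes tested, 32.7% higher and 29.1% lower) and 7 of 9 under osimertinib (3 higher and 4 lower, against 61.4%, 32.7% higher and 28.7% lower). In H1650, 7 of 10 passed under erlotinib (4 higher and 3 lower, against 36.5%, 18% higher and 18.5% lower) and 8 of 10 under osimertinib (5 higher and 3 lower, against 35.7%, 17.8% higher and 17.9% lower). The median change of the members was -0.58 and 0.12 on the log2 scale in PC9 under erlotinib and osimertinib, beside 0.07 and 0.06 for all tested genes. In H1650 it was 0.01 and 0.57, beside 0.01 and 0.00. S100A2, S100A10 and S100A11 passed the test in all 4 comparisons, as did 20.3% of all tested genes. S100A2 and S100A11 fell in all 4, against 9.16% of tested genes, and no member rose in all 4, against 8.47%, which makes 17.6% of tested genes with one direction throughout. Under erlotinib S100A2, S100A10, S100A11, S100A14 and S100P were called in the same direction in both lines (24.4% of tested genes were) and S100A4 in opposite directions (4.4%). Under osimertinib S100A2, S100A6 and S100A11 went the same way (24.3%) and S100A9 and S100A10 went opposite ways (4.19%).

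**Figure D3:**
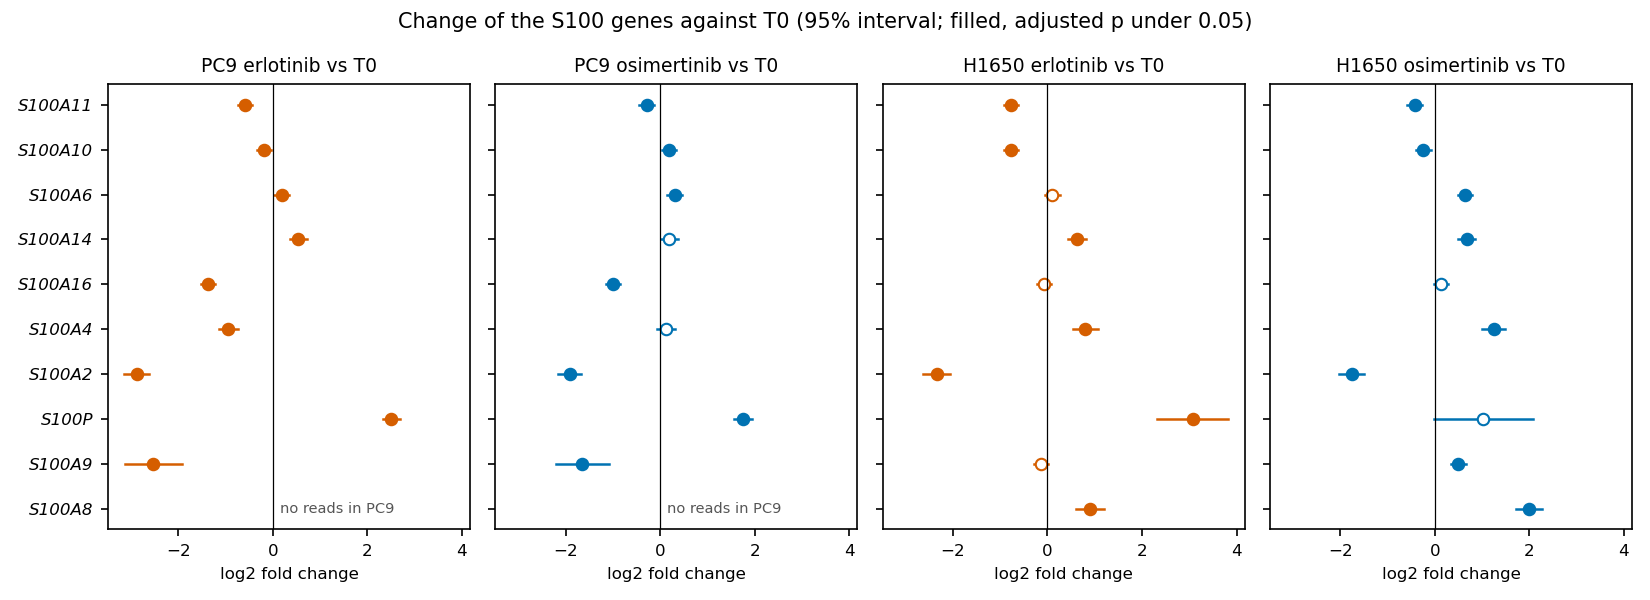
Log2 fold change of each S100 gene against T0 in the 4 drug comparisons, with the 95% interval from the edgeR fit; filled points passed an adjusted p of 0.05 and open points did not. S100A2 lies far to the left in all 4 panels, S100P to the right in PC9, and S100A4 changes side between PC9 and H1650 under erlotinib. The intervals of S100A9 in PC9 and S100P in H1650 are narrower than counting of their reads allows.

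S100A2, a calcium sensor of basal and squamous epithelium that binds p53, fell in both lines under both drugs. In PC9 it stood at 66.8 and 66.4 CPM at T0, 9.23 and 8.86 CPM under erlotinib and 15.3 and 20.2 CPM under osimertinib. In H1650 the values were 30.4 and 29.7 CPM at T0, 5.47 and 6.33 CPM under erlotinib and 7.97 and 9.84 CPM under osimertinib. Within each line the T0 libraries were the highest, the osimertinib libraries came next and the erlotinib libraries were the lowest, with no overlap between these groups. The log2 fold change in PC9 was -2.88 ± 0.13 (SE) under erlotinib, a 7.37-fold fall (adjusted p = 1.75e-17), and -1.92 ± 0.12 under osimertinib, a 3.77-fold fall (adjusted p = 3.83e-14). For H1650 it was -2.34 ± 0.14, or 5.08-fold (adjusted p = 1.69e-13), and -1.75 ± 0.13, or 3.37-fold (adjusted p = 2e-11). Across groups the order of levels was PC9 T0, H1650 T0, PC9 osimertinib, PC9 erlotinib, H1650 osimertinib and H1650 erlotinib, and only PC9 erlotinib and H1650 osimertinib overlapped their neighbour. Of 8 squamous markers, 2 rose and 4 fell in PC9 under erlotinib, 3 rose and 4 fell under osimertinib, and in H1650 2 rose and 3 fell under erlotinib while 3 rose and 3 fell under osimertinib. All genes tested were called in 61.8%, 61.4%, 36.5% and 35.7% of cases in these comparisons. The summed level of the 8 genes in PC9 was 890.2 to 909 CPM at T0, 653 to 659 under erlotinib and 966 to 1053 under osimertinib, and in H1650 it was 365 CPM in both T0 libraries, 214 to 228 under erlotinib and 339.6 to 348 under osimertinib. DSG3 had 0 reads in all PC9 libraries, and the part of these genes in the fall of S100A2 was not tested.

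S100P, a secreted and cytoplasmic S100 protein that binds ezrin and RAGE, was the member that rose most in PC9. Its level in PC9 went from 24.2 and 23.4 CPM at T0 to 141 and 131 CPM under erlotinib and 77.7 and 83.8 CPM under osimertinib. Erlotinib libraries were the highest and T0 libraries the lowest, without overlap. The rise was 5.70-fold under erlotinib, 2.51 ± 0.092 on the log2 scale (adjusted p = 3.47e-19), and 3.39-fold under osimertinib, 1.76 ± 0.092 (adjusted p = 9.97e-16). In H1650 the gene was close to the floor, with 3 and 6 reads at T0, 28 and 39 reads under erlotinib and 9 and 8 reads under osimertinib. The summed reads of the erlotinib libraries were 8.63 times those at T0 after scaling (95% counting interval 4.28 to 19.7), and this rise passed the test (adjusted p = 1.36e-07). For osimertinib the ratio was 2.06 (0.869 to 5.25), and the difference was not detectable at this depth (adjusted p = 0.152). These intervals cover counting error only. Ezrin (EZR), which links membrane and actin, fell in all 4 comparisons, with log2 changes of -0.64 and -0.43 for PC9, then -0.59 and -0.43 for H1650 under erlotinib and osimertinib. AGER, the RAGE gene, was at 5.74 CPM in PC9 at T0, where it did not pass the test under either drug (0.23 and 0.38), and it rose in H1650 from 7.35 CPM by 1.39 under erlotinib and 1.11 under osimertinib.

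S100A4, the metastasis-associated member that binds the heavy chain of non-muscle myosin (MYH9), moved in opposite directions in the lines under erlotinib. PC9 libraries held 63.6 and 67.7 CPM at T0, 34.2 and 34.4 CPM under erlotinib and 66.0 and 76.9 CPM under osimertinib. H1650 libraries held 7.98 and 8.10 CPM at T0, 12.4 and 15.5 CPM under erlotinib and 19.6 and 18.5 CPM under osimertinib. In PC9 the erlotinib libraries were the lowest while T0 and osimertinib overlapped, and in H1650 both treated groups lay above T0. The change in PC9 was -0.94 ± 0.098 (adjusted p = 2.55e-09) under erlotinib and 0.12 ± 0.095 (adjusted p = 0.281) under osimertinib, with a 95% interval of -0.07 to 0.32 for the latter. In H1650 it was 0.80 ± 0.13 (adjusted p = 1.04e-05) under erlotinib and 1.24 ± 0.12 (adjusted p = 4.31e-09) under osimertinib. MYH9 fell in H1650 (-1.21 under erlotinib and -1.05 under osimertinib) and in PC9 under erlotinib (-0.16, adjusted p = 0.0463), and stood at 0.07 in PC9 under osimertinib (adjusted p = 0.431).

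S100A8 and S100A9, the subunits of calprotectin, were found at more than a trace in H1650 alone. S100A8 had 0 reads in each of the 6 PC9 libraries, which allows up to 0.168 CPM in the shallowest of them. In H1650 it stood at 11.5 and 11.96 CPM at T0, 24.9 and 19.0 CPM under erlotinib and 44.7 and 48.9 CPM under osimertinib. The 3 H1650 groups did not overlap, and the osimertinib libraries were the highest. S100A8 rose 1.87-fold under erlotinib, 0.90 ± 0.14 on the log2 scale (adjusted p = 1.38e-05), and 3.99-fold under osimertinib, 2.00 ± 0.14 (adjusted p = 2.66e-11). S100A9 in H1650 was at 143 and 145 CPM at T0, 132 and 129.8 CPM under erlotinib and 198 and 209 CPM under osimertinib. Its osimertinib libraries were the highest, and the change was 0.50 ± 0.074 (adjusted p = 4.86e-06). Under erlotinib the difference was -0.13 ± 0.075 (adjusted p = 0.17), with a 95% interval of -0.29 to 0.02. The ratio of the calprotectin genes differed between the H1650 groups, without overlap of their libraries. On the length-scaled level S100A9 exceeded S100A8 by 19.1 ± 0.33 times (SD, n = 2) in H1650 at T0, 9.43 ± 1.65 times under erlotinib and 6.75 ± 0.17 times under osimertinib. Beside these values the summed myeloid markers of H1650, mostly CSF1R, were lower in the treated libraries than at T0. CD14 had its highest mean in the osimertinib group (3.58 CPM, against 2.09 at T0), a difference that did not pass the test. Of the 3 myeloid markers tested, none rose and 2 fell in H1650 under osimertinib, where 35.7% of all tested genes were called. These were CSF1R and ITGAM, and ITGAM was at the floor, with 2 to 4 reads in the H1650 T0 libraries and 0 under osimertinib. The part of these markers in the S100A8 result was not tested.

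In PC9 S100A9 was present at a trace and fell. Its reads were 34 and 49 at T0, 8 and 9 under erlotinib and 14 and 12 under osimertinib. All treated libraries lay below both T0 libraries. The fitted change was -2.53 ± 0.29 (adjusted p = 1.98e-08) under erlotinib and -1.64 ± 0.27 (adjusted p = 5.93e-06) under osimertinib. From summed reads the erlotinib level was 0.171 of that at T0 (95% counting interval 0.0953 to 0.291) and the osimertinib level 0.318 of it (0.197 to 0.4997). On the log2 scale these counting intervals are wider than the 95% intervals of the fit, so the fitted errors understate the uncertainty here. TLR4, a receptor of extracellular calprotectin, was likewise scarce, at 1.47 CPM in PC9 and 0.255 CPM in H1650 at T0.

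S100A10 and S100A11, partners of annexin A2 (ANXA2) and annexin A1 (ANXA1), were the pair of members with the most similar pattern over the 12 libraries, with a root mean square difference of 0.200 between their centred log2 levels. S100A11 in PC9 was at 558 and 579.7 CPM at T0, 372 and 387 CPM under erlotinib and 428 and 506 CPM under osimertinib. H1650 libraries were at 694 and 724 CPM at T0, 404 and 429 CPM under erlotinib and 512 and 542 CPM under osimertinib. All treated libraries of a line lay below both of its T0 libraries. The log2 changes in PC9 were -0.58 ± 0.075 (adjusted p = 1.13e-07) under erlotinib and -0.28 ± 0.075 (adjusted p = 0.00167) under osimertinib. Those in H1650 were -0.77 ± 0.075 (adjusted p = 4.05e-09) and -0.43 ± 0.075 (adjusted p = 4.06e-05). Without PC9 osimertinib replicate 1 the PC9 osimertinib change was -0.17 (adjusted p = 0.0775). ANXA1 fell in H1650 (-0.44 and -0.37) and did not pass the test in PC9 (-0.11 and 0.11).

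S100A10, which forms a heterotetramer with ANXA2 at the membrane, fell most clearly in H1650. There it went from 896 and 939.8 CPM at T0 to 512 and 562 CPM under erlotinib and 765 and 788 CPM under osimertinib. In PC9 it was at 528 and 537 CPM at T0, 452 and 483 CPM under erlotinib and 562 and 651 CPM under osimertinib. The H1650 groups were ordered T0, osimertinib and erlotinib without overlap, and in PC9 the osimertinib libraries were above and the erlotinib libraries below T0. The changes in H1650 were -0.77 ± 0.074 (adjusted p = 2.95e-09) under erlotinib and -0.24 ± 0.074 (adjusted p = 0.0112) under osimertinib. In PC9 they were -0.19 ± 0.074 (adjusted p = 0.0295) and 0.19 ± 0.074 (adjusted p = 0.0305). These calls did not hold in 6 and 9 of the 20 alternatives, an adjusted p threshold of 0.01 among them. The erlotinib call was lost without PC9 erlotinib replicate 1 (-0.14, adjusted p = 0.194) or either PC9 T0 library (0.072 and 0.116). The osimertinib call was lost without PC9 osimertinib replicate 2 (0.07, adjusted p = 0.462), either PC9 T0 library (0.145 and 0.0941), or one of H1650 T0 replicate 1 (0.0512), H1650 osimertinib replicate 1 (0.0526) and H1650 osimertinib replicate 2 (0.0527). In H1650 the osimertinib call was lost without H1650 osimertinib replicate 1 (-0.22, adjusted p = 0.0897) or H1650 T0 replicate 2 (-0.21, 0.0971). ANXA2, the more abundant partner at 2322 CPM in PC9 and 2483 CPM in H1650 at T0, changed by -0.91 and -0.34 in H1650 under erlotinib and osimertinib, by -0.49 in PC9 under erlotinib and by 0.12 in PC9 under osimertinib, where it did not pass the test (adjusted p = 0.137). AHNAK, a giant scaffold bound by the same complex, rose in PC9 (1.08 and 1.14) and fell in H1650 (-0.48 and -0.45).

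S100A6, or calcyclin, rose most in H1650 under osimertinib. In H1650 its libraries were at 393 and 397 CPM at T0, 422 and 429 CPM under erlotinib and 608 and 619 CPM under osimertinib. In PC9 they were at 319.5 and 309.8 CPM at T0, 357 and 359 CPM under erlotinib and 353 and 427 CPM under osimertinib. The H1650 osimertinib libraries were the highest of all 12, and within PC9 the replicates of the osimertinib group lay on either side of the erlotinib group. The change in H1650 was 0.63 ± 0.075 (adjusted p = 1.08e-07) under osimertinib and 0.11 ± 0.075 (adjusted p = 0.287) under erlotinib. In PC9 it was 0.31 ± 0.075 (adjusted p = 0.000784) under osimertinib and 0.19 ± 0.075 (adjusted p = 0.0322) under erlotinib. The last call was lost in 14 of 20 alternatives, among them the omission of either PC9 T0 library (adjusted p = 0.0834 and 0.177), either PC9 erlotinib library (0.0814 and 0.101) and, with values between 0.0564 and 0.0635, any of 5 H1650 libraries, and the PC9 osimertinib change without PC9 osimertinib replicate 2 was 0.16 (adjusted p = 0.0772). Calcyclin-binding protein, CACYBP, fell in all 4 comparisons, with log2 changes of -1.60 and -1.65 for PC9, then -0.45 and -0.46 for H1650.

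S100A14 and S100A16, epithelial members encoded side by side, went in opposite directions in PC9 under erlotinib. S100A14 in PC9 was at 146 and 150.5 CPM at T0, 203 and 228 CPM under erlotinib and 152 and 187 CPM under osimertinib. H1650 libraries were at 127 and 134 CPM at T0, 186 and 217 CPM under erlotinib and 206 and 210.3 CPM under osimertinib. Every treated library was above both T0 libraries of its line, and in H1650 the treated groups overlapped one another. S100A14 rose in PC9 under erlotinib by 0.54 ± 0.088 (adjusted p = 5.56e-06) and in H1650 by 0.62 ± 0.088 (adjusted p = 2.11e-06) under erlotinib and 0.67 ± 0.088 (adjusted p = 6.82e-07) under osimertinib. In PC9 under osimertinib it stood at 0.19 ± 0.089 (adjusted p = 0.063), and without PC9 osimertinib replicate 1 at 0.33 (adjusted p = 0.00479).

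S100A16 fell in PC9 and not detectably in H1650. Its PC9 libraries were at 404 and 395 CPM at T0, 153 and 154 CPM under erlotinib and 188 and 213 CPM under osimertinib. Its H1650 libraries were at 201 and 189 CPM at T0, 179.9 and 189 CPM under erlotinib and 220.2 and 210.4 CPM under osimertinib. PC9 at T0 stood apart from the other groups, whose libraries lay between 153 and 220.2 CPM. The change in PC9 was -1.38 ± 0.073 (adjusted p = 1.78e-15) under erlotinib, a 2.60-fold fall, and -0.99 ± 0.073 (adjusted p = 1.63e-12) under osimertinib, a 1.99-fold fall. The H1650 change was -0.08 ± 0.073 (adjusted p = 0.42) under erlotinib, with an interval of -0.23 to 0.07, and 0.14 ± 0.073 (adjusted p = 0.138) under osimertinib, with an interval of -0.01 to 0.29.

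How the lines differed before treatment was asked by comparing H1650 with PC9 at T0. Of the 10 members, 9 passed the test (5 higher and 4 lower in H1650), against 69.6% of all tested genes (35.8% higher and 33.8% lower). S100A8, with 0 reads in PC9, passed the filter on low counts through H1650 alone. Its calls between the lines, here and under the drugs, were thus largely set by that filter. The genes higher in H1650 were S100A9, at 144 against 2.07 CPM or 69.3-fold (adjusted p = 1.96e-25), S100A8, S100A10, S100A11 and S100A6. S100A8 was at least 77.5-fold higher, taking 3 reads per library as the PC9 floor, and the other 3 differed by 1.72-, 1.25- and 1.26-fold. The genes lower in H1650 were S100P, S100A4, S100A2 and S100A16. S100P summed to 954 reads in PC9 and 9 in H1650, a ratio of 125 (95% counting interval 65.7 to 275), and S100A4 was 8.16-fold lower (adjusted p = 4.72e-19), S100A2 2.22-fold and S100A16 2.05-fold lower. S100A14 differed by -0.18 ± 0.089 (adjusted p = 0.0706), and it passed in 7 of 19 alternatives: with RLE scaling (adjusted p = 0.0464), with no filter on low counts (0.00554), with the replicate number as a block (0.0102), without H1650 erlotinib replicate 1 or 2 (0.033 and 0.0331) and without PC9 osimertinib replicate 1 or 2 (0.0434 and 0.0439).

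Under the drugs some of these line differences narrowed and others widened. Under erlotinib 8 members passed (5 higher and 3 lower in H1650, against 72.1% of tested genes, 36.7% higher and 35.4% lower) and under osimertinib 9 passed (6 higher and 3 lower, against 71.6%, 36.6% higher and 35% lower). S100A4 was 2.44-fold lower in H1650 under erlotinib and 3.74-fold lower under osimertinib. S100A16 was lower in H1650 at T0, higher by 0.26 ± 0.073 (adjusted p = 0.00217) under erlotinib and at 0.10 ± 0.073 (adjusted p = 0.214) under osimertinib. S100A9 reached 363-fold under erlotinib and 306-fold under osimertinib, resting on 8 to 14 PC9 reads per library, and S100A8 was at least 163-fold and 278-fold higher in H1650. S100P stayed far lower in H1650, with PC9 to H1650 ratios from summed reads of 82.5 (95% counting interval 64.9 to 107) under erlotinib and 205 (128 to 353) under osimertinib. S100A2 was also lower in H1650, 1.53-fold under erlotinib (adjusted p = 0.000836) and 1.98-fold under osimertinib (adjusted p = 2.76e-07). S100A6 was higher in H1650, 1.19-fold (adjusted p = 0.00427) and 1.58-fold (adjusted p = 9.56e-09). S100A10 was higher by 0.36 ± 0.074 (adjusted p = 0.000109) under osimertinib and by 0.20 ± 0.074 (adjusted p = 0.0179) under erlotinib, the latter a call lost without PC9 erlotinib replicate 1 (adjusted p = 0.146) or H1650 erlotinib replicate 2 (0.225). S100A14 was 0.30 ± 0.088 (adjusted p = 0.0037) under osimertinib, a call lost without PC9 osimertinib replicate 1 (0.162). S100A11 was 0.17 ± 0.075 (adjusted p = 0.0397) under osimertinib and lost its call in 10 of 19 alternatives, among them the omission of PC9 osimertinib replicate 1 (0.06, adjusted p = 0.547), H1650 osimertinib replicate 2 (0.13, 0.244), either PC9 T0 library (0.0504 and 0.0512) or H1650 T0 replicate 1 (0.0503).

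**Figure D4:**
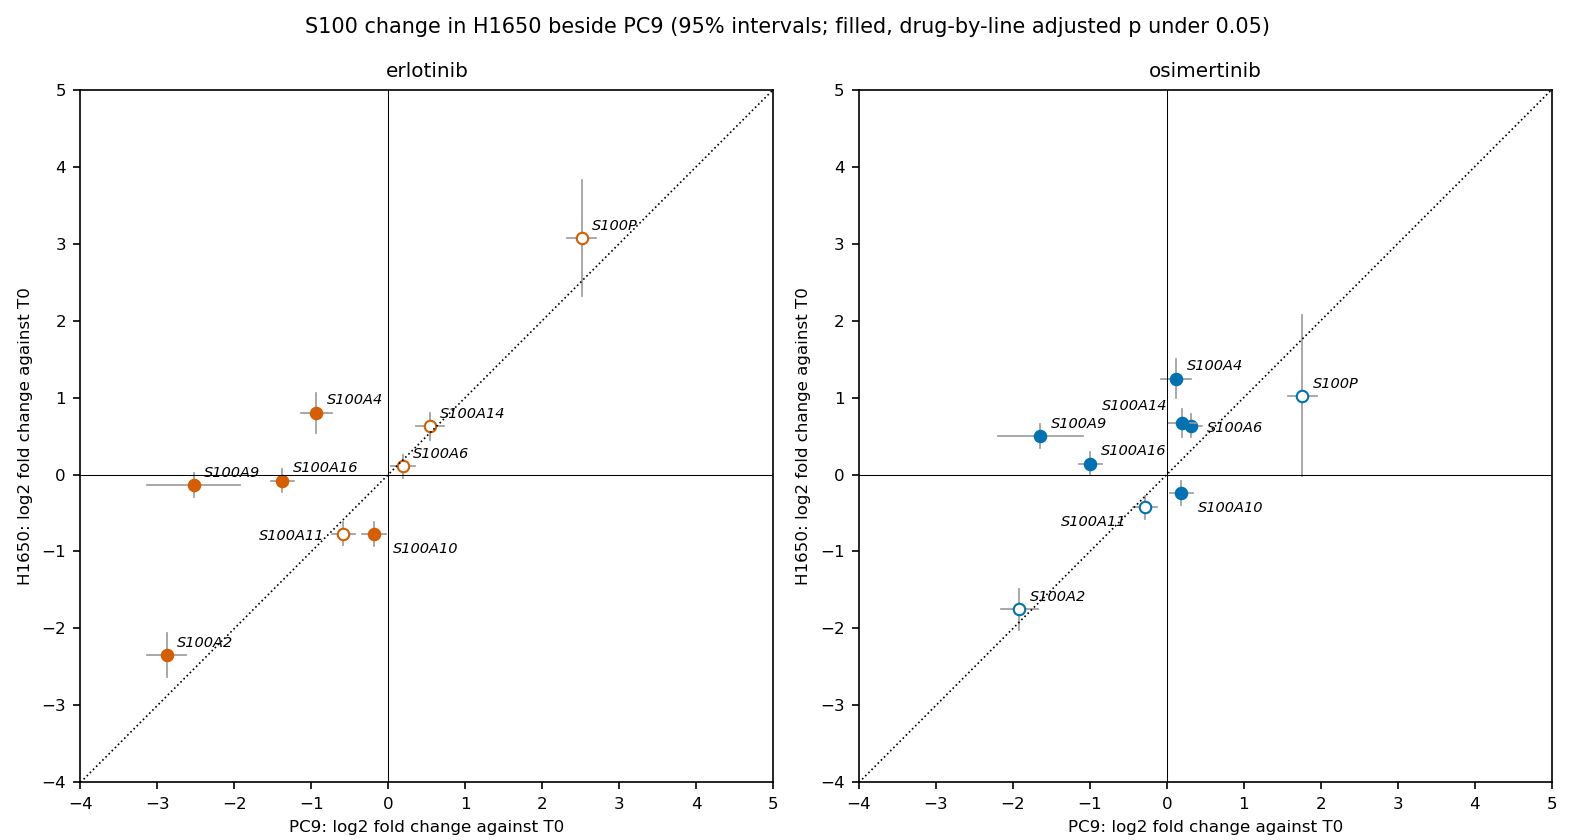
Log2 fold change against T0 in H1650 (vertical) beside that in PC9 (horizontal) for 9 S100 genes under erlotinib (left) and osimertinib (right), with 95% intervals; the dotted line marks equal change, and filled points passed the drug-by-line test. S100A4, S100A9 and S100A16 lie well above the line in both panels and S100A10 below it. S100A8 is left out because PC9 had no reads of it. The intervals of S100A9 in PC9 and S100P in H1650 are narrower than counting of their reads allows.

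Whether a drug changed a member differently in the lines was tested by the drug-by-line term, the H1650 change minus the PC9 change. Under erlotinib 5 of 9 members passed (4 higher and 1 lower, against 40.8% of tested genes, 21.1% higher and 19.8% lower), and under osimertinib 6 of 9 (5 higher and 1 lower, against 41.9%, 21.5% higher and 20.5% lower). S100A4 differed by 1.74 ± 0.16 (adjusted p = 5.91e-10) under erlotinib and 1.12 ± 0.15 (adjusted p = 8.15e-07) under osimertinib. S100A9 differed by 2.39 ± 0.31 and 2.14 ± 0.28, S100A16 by 1.30 ± 0.10 and 1.13 ± 0.10, and S100A10 by -0.59 ± 0.10 and -0.43 ± 0.10. S100A2 passed under erlotinib alone, at 0.54 ± 0.19 (adjusted p = 0.0243), and was at 0.16 ± 0.18 (adjusted p = 0.498) under osimertinib. S100A6 and S100A14 passed under osimertinib alone. For S100P the difference was 0.56 (95% interval -0.31 to 1.43) under erlotinib and -0.74 (-1.92 to 0.44) under osimertinib, with 3 to 39 reads in each H1650 library. For S100A11 it was -0.18 (-0.40 to 0.03) and -0.14 (-0.36 to 0.07). The S100P intervals and the S100A9 errors come from the fit and are narrower than counting of the reads allows. The S100A2 difference under erlotinib lost its call in 7 of 19 alternatives, for example at 0.44 (adjusted p = 0.146) without H1650 erlotinib replicate 2, at 0.54 (0.051) without PC9 T0 replicate 1, at 0.52 (0.0524) without H1650 T0 replicate 2 and at 0.51 (0.0606) without PC9 erlotinib replicate 2. S100A6 under osimertinib lost its call at 0.20 (adjusted p = 0.131) without PC9 osimertinib replicate 1 and at 0.31 (0.0526) without PC9 T0 replicate 1.

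The inhibitors were given at different doses, 10 µM for erlotinib and 0.1 µM for osimertinib, so a difference between their groups is one between these treatments and not between the compounds at matched dose. In PC9, 7 of 9 members differed (5 higher and 2 lower under osimertinib), against 16.6% of tested genes (10.1% higher and 6.41% lower). In H1650, 8 of 10 differed (7 higher and 1 lower), against 8.75% (5.02% higher and 3.73% lower). The largest difference among the well-detected members of PC9 was in S100A4, at 1.06 ± 0.098 (adjusted p = 4.69e-09), followed by S100A2 at 0.97 ± 0.13 (adjusted p = 4.87e-06) and S100P at -0.75 ± 0.083 (adjusted p = 1.45e-07). In H1650 S100P was lower under osimertinib, by 4.19 times from 67 and 17 summed reads (95% counting interval 2.43 to 7.61), and S100A8 was higher by 1.09 ± 0.13 (adjusted p = 1.92e-06). S100A9, S100A2, S100A6, S100A10, S100A4 and S100A11 were higher under osimertinib in H1650 by 0.63, 0.59, 0.53, 0.53, 0.44 and 0.34. Without H1650 erlotinib replicate 1, 5 of these 8 calls were left, S100A2 standing at 0.49 (adjusted p = 0.138), S100A4 at 0.29 (0.253) and S100A11 at 0.29 (0.0562). S100A2 and S100A11 also lost theirs without H1650 osimertinib replicate 2 (0.43, adjusted p = 0.206, and 0.30, 0.0526) and S100A4 without H1650 osimertinib replicate 1 (0.40, 0.124). S100A16, at 0.22 ± 0.073 (adjusted p = 0.0562), passed without either PC9 osimertinib library (0.0389 and 0.0400). In PC9, S100A10, S100A11 and S100A16 were higher under osimertinib by 0.38, 0.30 and 0.38, and S100A14 was lower, at -0.35. S100A11 lost its call without PC9 osimertinib replicate 2 (0.17, adjusted p = 0.188) or PC9 erlotinib replicate 1 (0.27, 0.057), and S100A14 without PC9 osimertinib replicate 1 (-0.21, 0.203) or PC9 erlotinib replicate 2 (-0.26, 0.0965).

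Binding partners and receptors of S100 proteins fell more often than they rose. Of 14 listed genes, all tested, 1 rose and 10 fell in PC9 under erlotinib, 2 rose and 6 fell in PC9 under osimertinib, and 2 rose and 9 fell in H1650 under each drug. The median change of this list was -0.44, -0.06, -0.35 and -0.35, beside 0.07, 0.06, 0.01 and 0.00 for all tested genes, of which 61.8%, 61.4%, 36.5% and 35.7% were called. The most abundant of those called in 3 or more comparisons were MYH9, ANXA2, AHNAK and EZR, whose values are given above with their S100 partners. ERK output genes, transcripts that report on the pathway below EGFR, differed between the lines, with 11 of 12 higher and 1 lower by the drug-by-line test under each drug. Of all tested genes, 40.8% were called by that test under erlotinib (21.1% higher and 19.8% lower). Under osimertinib it was 41.9% (21.5% higher and 20.5% lower). Of the 12, 1 rose and 11 fell in PC9 under each drug, whereas in H1650 7 rose and 3 fell under erlotinib and none rose and 6 fell under osimertinib. FOSL1, which encodes an AP-1 subunit, fell in all 4 comparisons, with log2 changes of -4.40 and -4.14 for PC9, then -2.75 and -3.11 for H1650. S100A2, whose window held the AP-1 motif, and S100A11, whose window did not, also fell in all 4, as did 9.16% of all tested genes. A link between FOSL1 and S100A2 was not tested. DUSP4, an ERK phosphatase, fell in PC9 (-3.93 and -4.04), rose in H1650 under erlotinib (0.66) and fell there under osimertinib (-0.53). The gene of this list that rose in PC9 was EGR1, an immediate early transcription factor, at 0.78 and 2.35, and it fell in H1650 (-2.57 and -1.56).

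Of 10 other S100 genes, 5 passed the filter. The counts here and for the next list stand against 61.8%, 61.4%, 36.5% and 35.7% of all tested genes called in PC9 under erlotinib and osimertinib and in H1650 under erlotinib and osimertinib. None rose and 2 fell in PC9 under erlotinib, 1 rose and 1 fell in PC9 under osimertinib, none rose and 1 fell in H1650 under erlotinib, and 1 rose and none fell in H1650 under osimertinib. S100A7A, S100B and S100G had 0 reads in all 12 libraries. S100A12, a calgranulin encoded between S100A9 and S100A8, had 0 reads in PC9 and at most 28 in an H1650 library. Among 26 genes of the epidermal differentiation complex, 9 were tested. Of these 3 rose and 3 fell in PC9 under erlotinib, 5 rose and 3 fell in PC9 under osimertinib, 1 rose and 1 fell in H1650 under erlotinib, and 3 rose and none fell in H1650 under osimertinib. In PC9 libraries the 26 genes summed to only 6.29 to 8.39 CPM. Several PC9 calls thus rest on few reads, as for FLG and HRNR with 0 to 2 reads at T0. SPRR1B and SPRR3, small proline-rich envelope proteins, fell in PC9 under both drugs from 2.67 and 2.39 CPM at T0. In H1650 SPRR1B fell under erlotinib, from 1.78 to 0.729 CPM (adjusted p = 0.0334), and SPRR3 rose under osimertinib, from 1.16 to 2.41 CPM (adjusted p = 0.0216).

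Genes with the pattern most like that of each member were found by the root mean square difference of centred log2 levels over the 12 libraries, among 10284 genes with a mean of at least 10 CPM. For S100A2 they were MYH15 (0.383), LAMA3 (0.414), SLC29A1 (0.448). S100A4 was nearest to TSPAN1 (0.222), C3 (0.290), BHLHE41 (0.353), S100A8 to RHOU (0.319), CCL5 (0.333), CACNA1D (0.341), and S100A9 to APLP1 (0.287), CASP14 (0.366), CLCA2 (0.426). For S100P they were SAMD12 (0.512), THNSL2 (0.524), LINC01895 (0.533). For the members of narrow range the nearest were KDELR2 (0.0867) for S100A11, FKBP14 (0.0973) for S100A10, GPBP1L1 (0.102) for S100A14, SNX27 (0.109) for S100A6 and ERH (0.113) for S100A16. Their smaller distances follow from the measure, which grows with the variation of the gene itself. The root mean square about its own mean was 0.303 for S100A11 and 3.46 for S100A9. Distances are thus not comparable between members. Beyond that, a small distance says only that the levels ran in parallel over these libraries, which share their lines and treatments.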

How the data were processed

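PolyA RNA of PC9 and H1650 cells was sequenced by the study, and reads were processed by the authors in the DolphinNext pipeline into raw featureCounts counts per gene, deposited with a gene length in bases. The submitters' processing notes name GRCh38 and DESeq2. The aligner, annotation release and strand setting are not given in the sources used here. Groups came from the sample titles. The counts were fitted in edgeR 4.0.16 (R 4.3.3) with TMM scaling, filterByExpr and the quasi-likelihood test, one mean per group over all 12 libraries (6 residual degrees of freedom), with Benjamini-Hochberg adjustment over the 19108 genes tested and an adjusted p threshold of 0.05. The fit was tested on simulated data. Errors on log2 values are SE, and on group means SD. The study calls its RNA-seq replicates biological and gives no detail on how they were cultured apart, so p-values refer to these samples alone. The fit moderated each gene's spread towards one shared over genes, with a median of 20.7 prior beside 6 residual degrees of freedom. An SE or p-value thus rests more on that shared spread than on the gene's own replicates. Replicate pairs differed beyond counting noise. S100A8 was given no fold where PC9 had 0 reads, and a floor of 3 reads per library set bounds. Alternatives included DESeq2 1.42.0 and, without a new fit, an adjusted p threshold of 0.01. The members and gene lists were chosen with earlier results of these data known. From the lists of partners, ERK output, other S100 and epidermal differentiation genes, at most 4 were named, those of highest mean CPM called in 3 or more drug comparisons, besides partners of the member described. Marker genes, S100A12 and S100 genes at 0 reads were named outside this rule, after their values were seen. Promoters were taken from RefSeq and positions from GENCODE 29. Protein sequences were not used here.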

Additional observations from a re-analysis of the deposited data

Results flagged for a closer look

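For these members the change under a drug differed between the lines by the drug-by-line test (H1650 change minus PC9 change, log2, edgeR's quasi-likelihood test). Under erlotinib the differences were 0.54 ± 0.19 (adjusted p = 0.0243) for S100A2, 1.74 ± 0.16 (adjusted p = 5.91e-10) for S100A4, 2.39 ± 0.31 (adjusted p = 2.74e-07) for S100A9, -0.59 ± 0.10 (adjusted p = 4.26e-05) for S100A10 and 1.30 ± 0.10 (adjusted p = 3.01e-11) for S100A16. Under osimertinib they were 1.12 ± 0.15 (adjusted p = 8.15e-07) for S100A4, 0.33 ± 0.11 (adjusted p = 0.0135) for S100A6, 2.14 ± 0.28 (adjusted p = 3.05e-07) for S100A9, -0.43 ± 0.10 (adjusted p = 0.00141) for S100A10, 0.48 ± 0.12 (adjusted p = 0.00254) for S100A14 and 1.13 ± 0.10 (adjusted p = 4.06e-10) for S100A16. Both libraries of each treated group lay on the same side of T0 for S100A4 under erlotinib in each line. The S100A9 differences rest on 8 to 49 reads per PC9 library, and their fitted errors are narrower than counting of those reads allows.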

How the results depend on the processing

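Of 1970 values for single members under the alternatives, 1871 kept their direction and their side of the threshold, 71 lost and 23 gained a call, and 5 reversed. The alternatives include an adjusted p threshold of 0.01 on the unchanged main fit, which gave 10 of the lost calls. Reversals were all in differences that did not pass the test. Leaving out one library at a time, S100A14 between the lines under erlotinib ran from -0.22 to 0.0153 (the positive value without H1650 erlotinib replicate 1), its erlotinib drug-by-line term from -0.0215 (without H1650 erlotinib replicate 2) to 0.22, the S100A2 osimertinib drug-by-line term from -0.0276 (without PC9 osimertinib replicate 1) to 0.37, S100A6 between the drugs in PC9 from -0.0232 (without PC9 osimertinib replicate 2) to 0.25, and S100A14 between the drugs in H1650 from -0.0638 (without H1650 erlotinib replicate 1) to 0.17. Requiring a log2 change over 1 in size left 4, 3, 2 and 3 members called in the drug comparisons (PC9 erlotinib, PC9 osimertinib, H1650 erlotinib, H1650 osimertinib), 4 and 4 between the lines under erlotinib and osimertinib, 3 and 3 for the drug-by-line terms, and 1 and 2 between the drugs in PC9 and H1650. A minimum of 10 counts in every library, which leaves 7 members to test, gave 5 and 5 between the lines under erlotinib and osimertinib. Leaving out each library in turn gave 7 to 9 members called for PC9 erlotinib, 5 to 7 for PC9 osimertinib, 7 for H1650 erlotinib, 7 to 8 for H1650 osimertinib, 9 to 10 between the lines at T0, 7 to 8 under erlotinib and 7 to 10 under osimertinib, 4 to 5 and 5 to 6 for the drug-by-line terms, 6 to 7 between the drugs in PC9 and 5 to 9 in H1650. One fit per line gives no value between the lines. When a group was left with 1 library, that library was assumed to vary like the other groups.

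With the replicate number as a block, which the labels do not tie to a shared day or batch, the members called were 9, 8, 7 and 8 in the drug comparisons, and 4 single calls were gained and none lost: S100A14 in PC9 under osimertinib (adjusted p = 0.00995) and between the lines at T0 (0.0102), S100A11 between the lines under erlotinib (0.0323) and S100A16 between the drugs in H1650 (0.0104). Correlations of replicate differences between groups ran from -0.06 to 0.17, which does not settle whether samples of one replicate number shared a day or batch. Over all tested genes the block gave more calls in every comparison. Between the drugs they went from 3163 to 4166 genes in PC9 and from 1672 to 2670 in H1650. The reason for this was not tested. Upper quartile scaling moved the median of all genes by at most 0.09 on the log2 scale. Depth limits S100P in H1650 and S100A8 and S100A9 in PC9.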
